A study of Homo sapiens with 6 samples.

Results

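The laminin chain genes and the integrin subunit genes were examined in HEK293T cells that had been treated with VPA, valproic acid, which inhibits histone deacetylases. The members were taken by symbol alone from the deposited gene counts, as LAMA1 to LAMA5, LAMB1 to LAMB4, the LAMC genes and the ITGA and ITGB genes. This gave 38 of the 47470 genes listed, with 12 laminin genes (5 alpha, 4 beta and 3 gamma chains) and 26 integrin genes (18 alpha and 8 beta subunits). RNA-seq had been performed on 3 libraries of wild-type HEK293T cells cultured without VPA and on 3 libraries of the same line after 1 day in 1 mM VPA. HEK293T is an established line from human embryonic kidney into which the large T antigen of SV40 was introduced. Each library is a separate sample in the labels, but the labels do not say whether the replicates came from separate cultures, so that the p-values measure the spread between these libraries.

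Laminins are large glycoproteins of the basement membrane, each built from an alpha, a beta and a gamma chain that join along a coiled coil. The alpha chain carries the globular domains that cells bind, and the beta and gamma chains form the other arms through which trimers join into a network. Integrins are the main receptors of such matrices, each a pair of an alpha and a beta subunit, where the alpha subunit largely sets the ligand and ITGB1 serves as the shared partner of most alpha subunits. In kidney, basement membranes rich in LAMA5, LAMB2 and LAMC1 underlie the tubules and the glomerulus, and LAMA1 and ITGA8 are known for roles during nephron formation.

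The promoters of 6 members are shown because they stand for both outcomes in this comparison. LAMA5, LAMB1 and LAMC1 can form a common trimer, and ITGA6 with ITGB1 is a receptor for it. In treated cells LAMA5, LAMB1, ITGA6 and ITGA4 rose, whereas LAMC1 and ITGB1, the abundant shared partners, did not. Each line gives the 250 bases before the annotated start in RefSeq, on GRCh38.p14, read 5′ to 3′ on the strand of the gene, with capitals for GGGCGG on either strand (the GC box) and for CCAAT on either strand. The windows are chr20:62367313-62367562 (minus strand) for LAMA5, chr7:108003162-108003411 (minus) for LAMB1, chr1:183023170-183023419 (plus) for LAMC1, chr2:172427086-172427335 (plus) for ITGA6, chr10:32958231-32958480 (minus) for ITGB1 and chr2:181457136-181457385 (plus) for ITGA4.
LAMA5 promoter: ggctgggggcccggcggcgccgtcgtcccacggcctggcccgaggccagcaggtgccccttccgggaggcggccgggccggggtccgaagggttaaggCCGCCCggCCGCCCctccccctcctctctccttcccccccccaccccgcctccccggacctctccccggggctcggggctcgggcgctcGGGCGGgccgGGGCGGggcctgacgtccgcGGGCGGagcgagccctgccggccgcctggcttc
LAMB1 promoter: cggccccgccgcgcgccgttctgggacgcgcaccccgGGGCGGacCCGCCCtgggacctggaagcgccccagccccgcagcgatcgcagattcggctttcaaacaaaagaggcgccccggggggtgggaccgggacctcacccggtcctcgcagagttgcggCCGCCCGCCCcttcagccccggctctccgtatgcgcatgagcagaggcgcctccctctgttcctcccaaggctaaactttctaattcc
LAMC1 promoter: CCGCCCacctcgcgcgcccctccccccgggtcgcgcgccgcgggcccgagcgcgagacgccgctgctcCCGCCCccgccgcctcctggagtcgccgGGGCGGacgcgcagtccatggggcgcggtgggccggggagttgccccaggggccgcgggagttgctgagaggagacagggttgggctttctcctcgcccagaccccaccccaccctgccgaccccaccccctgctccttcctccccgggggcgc
ITGA6 promoter: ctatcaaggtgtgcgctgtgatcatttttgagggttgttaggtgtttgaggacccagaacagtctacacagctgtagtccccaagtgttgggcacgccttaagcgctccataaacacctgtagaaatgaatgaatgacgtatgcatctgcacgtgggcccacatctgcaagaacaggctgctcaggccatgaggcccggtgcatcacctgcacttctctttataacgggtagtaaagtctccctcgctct
ITGB1 promoter: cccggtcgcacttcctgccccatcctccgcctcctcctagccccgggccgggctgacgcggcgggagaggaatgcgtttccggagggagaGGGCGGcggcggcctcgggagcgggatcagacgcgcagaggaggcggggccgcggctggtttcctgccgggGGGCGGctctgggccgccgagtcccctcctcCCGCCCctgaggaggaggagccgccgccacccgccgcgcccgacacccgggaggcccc
ITGA4 promoter: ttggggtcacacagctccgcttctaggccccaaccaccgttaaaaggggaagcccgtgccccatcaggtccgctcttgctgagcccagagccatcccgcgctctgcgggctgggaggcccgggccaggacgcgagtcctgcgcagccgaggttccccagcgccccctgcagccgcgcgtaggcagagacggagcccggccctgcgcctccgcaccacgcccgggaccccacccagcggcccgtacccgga

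GC boxes were found in both outcomes, with 5 in the LAMA5 window, 4 in LAMB1, 3 in LAMC1 and 3 in ITGB1, and 0 in the windows of ITGA6 and ITGA4 (ITGA6 has 1 just after its start). None of the 6 windows held CCAAT. GC content was 82.8% for LAMA5 and 79.6% for LAMC1, against 50.8% for ITGA6. A match is a description of the letters and not of a bound site.

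Of the 38 members 30 had enough counts to be tested, and 21 of these were higher in VPA-treated cells at an adjusted p under 0.05 (edgeR's quasi-likelihood test, Benjamini-Hochberg adjustment over all 15298 genes tested), 3 were lower and 6 passed in neither direction. Across all tested genes 32.9% were higher and 30.0% lower. When the change also had to reach 1 on the log2 scale, 10 members were up-regulated and 0 down-regulated, where 12% and 0.503% of all tested genes were. In 24 of the 30 every VPA-treated library lay above every untreated one, and in 3 every VPA-treated library lay below, against 34.8% and 31.0% of all tested genes. Below, "rose" and "fell" are used of members that passed the adjusted p, and "up-regulated" of those that passed the fold change as well. Normalized counts are counts scaled by TMM to the mean library.

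Counts on genes ranged from 18622267 to 18828495 per library, of which the members took 20068 to 20198 in untreated and 27653 to 28470 in VPA-treated libraries. The members that were tested had between 51 and 42361 counts over the 6 libraries, so that precision differed widely between them. The biological coefficient of variation was 3.83% for the series. Other scalings moved the median log2 fold change of all genes from 0.0058 with TMM to 0.071 with the upper quartile and 0.14 with library totals, a shift that matters for members with small changes and is given beside them. In bulk RNA a change in the make-up of the cells and a change in RNA per cell cannot be told apart.

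**Figure D1:**
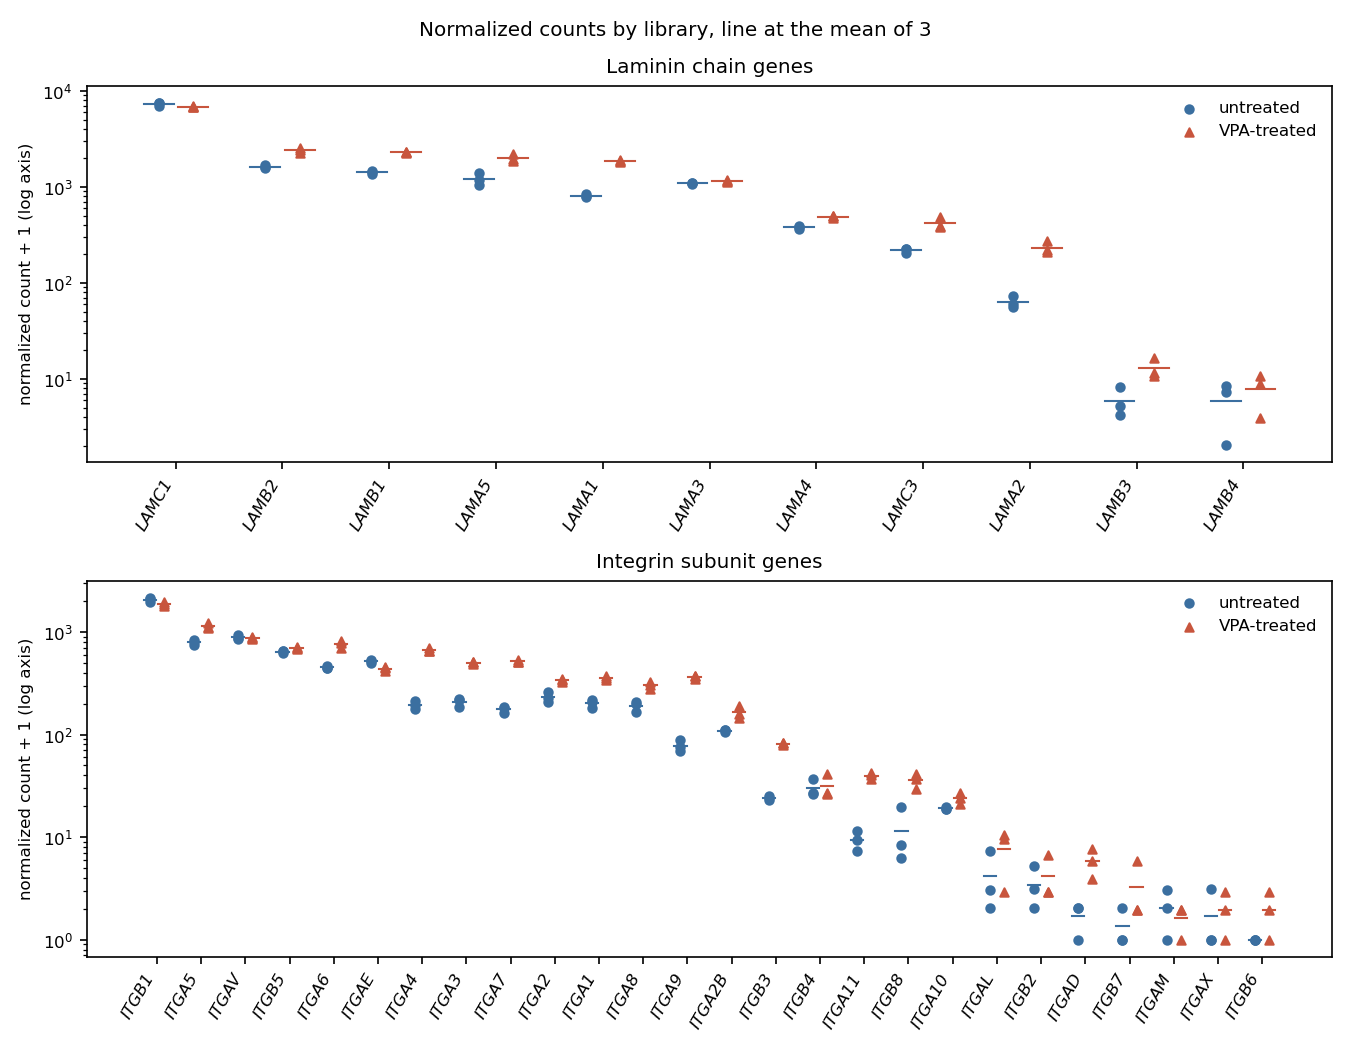
Normalized counts of laminin genes (top) and the 26 integrin genes (bottom), plotted with 1 added on a log axis, for the 3 untreated libraries (circles) and the 3 VPA-treated libraries (triangles), with a line at each mean and genes ordered by their level. LAMC1 lies highest and its conditions are close, LAMA1 moves from 785 to 842 up to 1823 to 1915, and the leukocyte integrins at the right lie near 0.

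Among the laminin alpha chains 4 of 5 rose and 2 of them were up-regulated. LAMA1 (chromosome 18 from 6941742 to 7117797, minus strand), the chain of early embryonic basement membranes, had 809.6, 842 and 785 normalized counts without VPA and 1915, 1849 and 1823 with it. The treated libraries lay close together and far above the untreated ones. The fold was 2.29 (log2 fold change 1.20, SE 0.048, adjusted p = 6.56e-15). LAMA2 (chromosome 6 from 128883138 to 129516566, plus strand), the alpha chain of muscle and nerve basement membranes, went from 54.9, 59.7 and 71.4 to 206, 219 and 270.0 normalized counts. This was the largest relative increase among the laminins, at 3.73-fold (log2 fold change 1.90, SE 0.13, adjusted p = 5.27e-11).

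LAMA5 (chromosome 20 from 62307955 to 62367312, minus strand), the alpha chain of most mature epithelial basement membranes, had 1382, 1187 and 1044 normalized counts in untreated and 2216, 1939 and 1845 in VPA-treated libraries. The libraries of both conditions were more spread for LAMA5 than for LAMA1, but the conditions did not overlap. Its fold was 1.66 (log2 fold change 0.73, SE 0.10, adjusted p = 0.000222). LAMA4, a chain of vessel and mesenchymal matrices, rose from 378 ± 14.9 to 487 ± 16.1 (SD, n = 3 each), 1.29-fold. LAMA3 (chromosome 18 from 23689453 to 23956222, plus strand), the epithelial chain of hemidesmosomal laminin, stood at 1094, 1102 and 1074 and then at 1161, 1118 and 1180. Although every treated library was above every untreated one, the difference of LAMA3 did not pass (log2 fold change 0.08, SE 0.048, adjusted p = 0.144). It passed with the upper quartile as the scaling, at 0.15, and with library totals, at 0.21, where the median of all genes was also raised.

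The beta chains followed the alpha chains, with 3 of 3 tested members higher. LAMB1 (chromosome 7 from 107923799 to 108003213, minus strand), the widely expressed beta chain, had 1442, 1378 and 1464 normalized counts in untreated cells against 2324, 2323 and 2261 after treatment. The increase was 1.61-fold (log2 fold change 0.69, SE 0.044, adjusted p = 1.17e-11). LAMB2 (chromosome 3 from 49121114 to 49133118, minus strand), the beta chain of the glomerulus and the neuromuscular junction, went from 1675, 1573 and 1622 to 2528, 2273 and 2442. Its fold of 1.49 (log2 fold change 0.57, SE 0.047, adjusted p = 8.66e-10) was close to that of LAMB1, and in both genes the conditions were well apart.

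LAMB3, the partner of LAMA3 in hemidesmosomal laminin, was barely counted, with 7.25, 3.14 and 4.20 normalized counts in untreated and 10.5, 15.4 and 9.57 in treated libraries. It passed both thresholds in edgeR (log2 fold change 1.26, SE 0.42, adjusted p = 0.0123) on 51 counts in all. DESeq2 gave it an adjusted p of 0.112, and the call was also lost without untreated replicate 2 (0.0682) or VPA-treated replicate 2 (0.0796). LAMB4, for which 6, 1 and 7 raw counts in untreated and 10, 8 and 3 in treated libraries were listed, did not pass the filter on low counts.

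Of the gamma chains 1 of 3 rose, near the 32.9% of all tested genes that were higher. LAMC1 (chromosome 1 from 183023420 to 183145592, plus strand), the gamma chain of most laminin trimers, was the member with the most counts, at 7023, 7479 and 7454 normalized counts in untreated and 6744, 6814 and 6912 in treated libraries. The treated libraries lay slightly below the untreated ones. Under TMM, LAMC1 fell by 0.10 on the log2 scale (SE 0.040, adjusted p = 0.0323), but the direction was not stable, since library totals gave 0.031 (adjusted p = 0.496) and the call was lost without any of 5 of the 6 libraries, all but untreated replicate 1 (adjusted p from 0.0556 to 0.103). LAMC3 (chromosome 9 from 131009174 to 131094473, plus strand), a gamma chain of nerve and retinal matrices, rose from 226, 226 and 206 to 481, 391 and 385. Its fold of 1.91 (log2 fold change 0.93, SE 0.090, adjusted p = 1.02e-08) lay just under the fold change threshold.

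ITGB4, which in epithelia is the partner of ITGA6 in that junction, stood at 29.2 ± 6.11 and 30.4 ± 8.55 (SD, n = 3 each) with overlapping libraries (log2 fold change 0.06, SE 0.23, adjusted p = 0.848). Its 179 counts over the 6 libraries give a wide error.

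The laminin-binding integrin alpha subunits rose in 3 of 3 genes. ITGA7 (chromosome 12 from 55684568 to 55716404, minus strand), the laminin receptor of muscle, had 182, 161 and 185 normalized counts in untreated and 513, 504 and 529.5 in treated libraries, a fold of 2.92 (log2 fold change 1.55, SE 0.076, adjusted p = 1.63e-13). ITGA3 (chromosome 17 from 50055968 to 50090481, plus strand), the receptor of podocytes and tubules for LAMA5 laminins, went from 216, 186 and 222 to 514, 484 and 509, a fold of 2.41 (log2 fold change 1.27, SE 0.077, adjusted p = 5.02e-12). Both were up-regulated, with no overlap between conditions. ITGA6 (chromosome 2 from 172427354 to 172506459, plus strand), which binds most laminins, was the most counted of the 3, at 446, 469 and 444 and then 699, 777 and 811. It rose 1.68-fold (log2 fold change 0.75, SE 0.064, adjusted p = 1.62e-09), below the fold change threshold.

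Of the collagen-binding alpha subunits 3 of 4 rose. ITGA11 (chromosome 15 from 68296532 to 68432163, minus strand), a receptor for fibrillar collagen in fibroblasts, had 8.28, 6.28 and 10.5 normalized counts in untreated and 39.3, 41.4 and 35.4 in treated libraries. The gene was close to its detection limit without VPA, and its fold of 4.58 (log2 fold change 2.20, SE 0.26, adjusted p = 2.47e-07) rests on 24 untreated counts. ITGA1, a receptor for basement membrane collagen, rose from 214, 181 and 205 to 358, 339 and 368 normalized counts (log2 fold change 0.83). ITGA2, the collagen receptor of platelets and epithelia, rose from 229 ± 24.8 to 339 ± 11.7 (SD, n = 3 each; log2 fold change 0.56). ITGA10, a chondrocyte receptor, had 18.1 ± 0.471 and 23.0 ± 2.88 and did not pass (adjusted p = 0.238). ITGA1 and ITGA2 are neighbours on chromosome 5 with 30130 bases between them, both on the plus strand.

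The subunits of RGD-binding integrins, which recognise fibronectin and vitronectin, rose in 5 of 7 tested genes and were up-regulated in 2. ITGB3 (chromosome 17 from 47253827 to 47313743, plus strand), the partner of ITGAV and of ITGA2B, moved from 21.7, 24.1 and 23.1 to 77.6, 81.9 and 81.4 normalized counts. Replicates agreed closely at both levels, and the fold was 3.48 (log2 fold change 1.80, SE 0.17, adjusted p = 5.96e-09). ITGB8 (chromosome 7 from 20330702 to 20415754, plus strand), which with ITGAV activates latent TGF-beta, had 18.6, 5.23 and 7.35 and then 40.2, 35.6 and 28.7, with a fold of 3.31 (log2 fold change 1.73, SE 0.31, adjusted p = 6.11e-05). Untreated replicate 1 stood above the other untreated libraries for ITGB8, and without it the log2 fold change was 2.44. When the test asked for a log2 fold change beyond 1 (glmTreat), ITGB8 had an adjusted p of 0.0573.

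The abundant RGD-binding subunits changed less. ITGA5 (chromosome 12 from 54395261 to 54419266, minus strand), the fibronectin receptor, rose from 841, 798 and 751 to 1228, 1113 and 1091, a fold of 1.44 (log2 fold change 0.52, SE 0.058, adjusted p = 8.02e-08). ITGAV (chromosome 2 from 186590010 to 186680901, plus strand), the vitronectin receptor that pairs with several beta subunits, had 939, 876 and 859 in untreated and 897, 849.6 and 877 in treated libraries. These ranges overlapped, and the difference was smaller than its error (log2 fold change -0.03, SE 0.053, adjusted p = 0.674). ITGB5, a further partner of ITGAV, stood at 628, 651 and 649.8 and at 676, 698 and 706, which did not overlap but did not pass (log2 fold change 0.11, SE 0.055, adjusted p = 0.0884). With the upper quartile it passed at 0.17 and with library totals at 0.24. ITGA8, the nephronectin receptor of the developing kidney, rose from 189.8 ± 22.7 to 301 ± 22.4 (log2 fold change 0.67), and ITGA2B, the platelet subunit, from 108 ± 3.17 to 163 ± 22.6 (log2 fold change 0.60; SD, n = 3 each).

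ITGA4 and ITGA9, which form a subfamily of their own and share ligands such as VCAM1, fibronectin variants and osteopontin, were both up-regulated. ITGA9 (chromosome 3 from 37452115 to 37823507, plus strand) had 68.3, 74.3 and 88.2 normalized counts in untreated and 345, 369.9 and 368 in treated libraries. Its fold of 4.69 was the highest among the tested members (log2 fold change 2.23, SE 0.10, adjusted p = 3.81e-14), next to that of ITGA11. ITGA4 (chromosome 2 from 181457202 to 181538940, plus strand) moved from 195, 177 and 212 to 654, 654 and 699, a fold of 3.44 (log2 fold change 1.78, SE 0.074, adjusted p = 1.14e-14). In both genes the treated libraries were close together and well above the untreated ones. CERKL, on the minus strand, shares 2813 exon bases with ITGA4 and had 35 counts in untreated and 161 in treated libraries, and ITGA9-AS1 shares 763 with ITGA9 and had 47 and 77. The library kit keeps the strand, but the strand setting of the counting is not given in the sources used here.

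The leukocyte subunits were near 0, apart from ITGAE. ITGAD, ITGAL, ITGAM, ITGAX, ITGB2 and ITGB7 had between 5 and 30 raw counts over the 6 libraries and were not tested, and ITGB6, an epithelial subunit, had 0, 0 and 0 in untreated and 1, 2 and 0 in treated libraries, where a count of 0 allows up to 3. A change in these genes was not detectable at this depth, except that ITGAD, with 1, 0 and 1 counts and then 7, 3 and 5, passed without a filter on low counts in edgeR (adjusted p = 0.0132) but not in DESeq2 (adjusted p = 0.0904). ITGAE (chromosome 17 from 3714628 to 3801188, minus strand), which on T cells binds E-cadherin with ITGB7, was well counted at 495, 526 and 535 and then 446, 452 and 416. It fell by 0.24 on the log2 scale (SE 0.064, adjusted p = 0.00216), and stayed negative under each scaling but lost the call with library totals (-0.11, adjusted p = 0.129). HASPIN, on the opposite strand, lies within the span of ITGAE and shares 427 exon bases with it. ITGB7, the known partner, had 0, 1 and 0 counts without VPA.

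ITGB1 (chromosome 10 from 32887273 to 33005792, minus strand), the shared partner of most alpha subunits, did not rise with them. It had 1969, 2151 and 2095 normalized counts in untreated and 1798, 1878 and 1958 in treated libraries, a slight shift downwards without overlap. ITGB1 fell by 0.14 on the log2 scale (SE 0.047, adjusted p = 0.0121), and under library totals it stood at -0.0098 (adjusted p = 0.867). The call was also lost with the upper quartile, without untreated replicate 2 (adjusted p = 0.0636) and without VPA-treated replicate 1 (adjusted p = 0.0572).

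**Figure D2:**
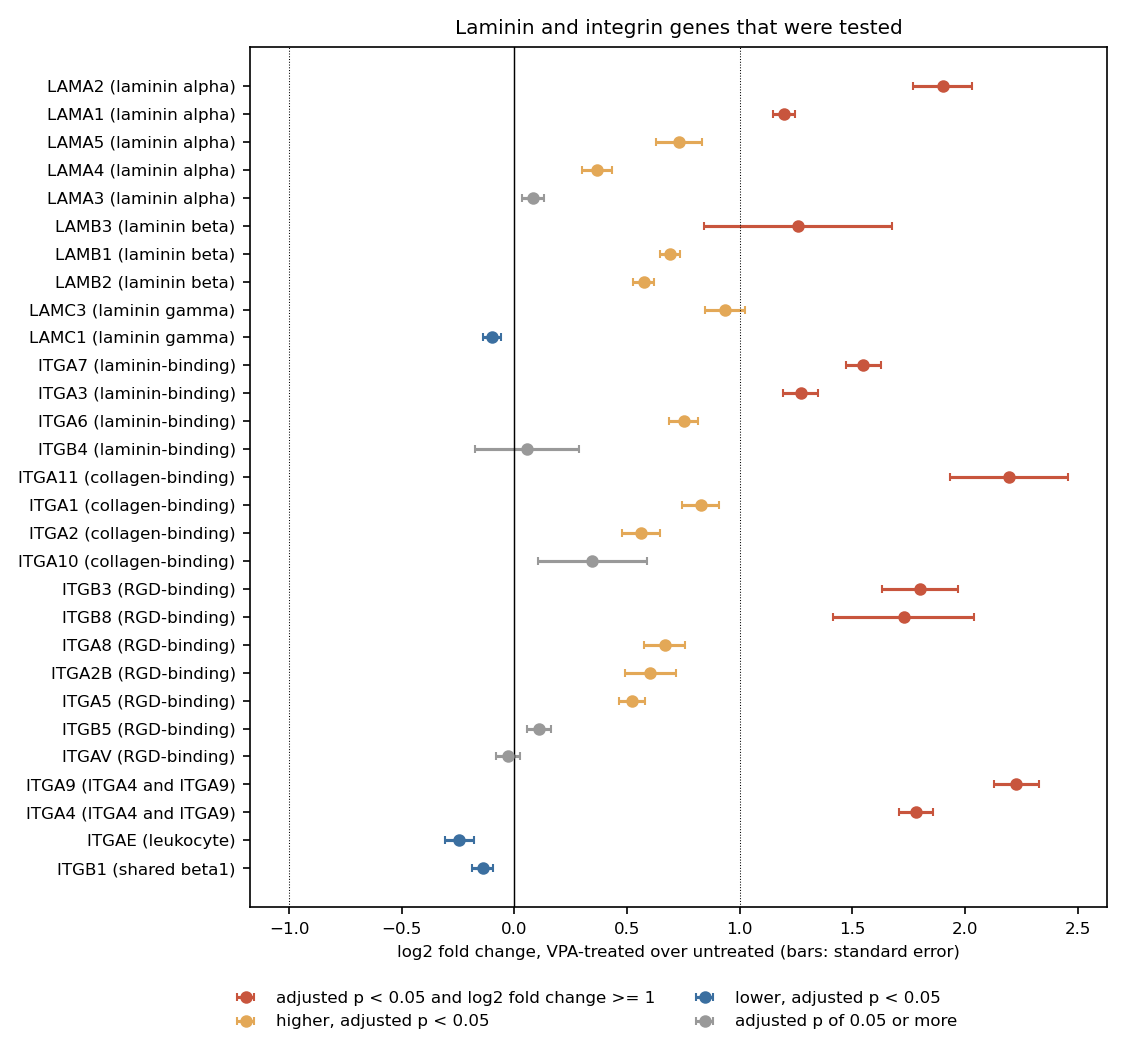
The log2 fold change of tested members (VPA-treated over untreated, points) with its standard error (bars), grouped by chain or by ligand class, with dotted lines at -1 and 1. The 10 up-regulated members lie from 1.20 to 2.23, and LAMC1, ITGB1 and ITGAE lie below 0.

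Ligands and receptors had similar shares of genes that rose (72.7% and 68.4%) and similar medians. Of the 11 tested laminin genes 8 rose, 1 fell and 3 (27.3%) were up-regulated, the median on the log2 scale being 0.69, and of the 19 tested integrin genes 13 rose, 2 fell and 7 (36.8%) were up-regulated, the median being 0.67. The median of all tested genes was 0.0058. Within the integrins 11 of 14 tested alpha subunits rose, and of the beta subunits 2 of 5. Because members share libraries they are not replicates of each other, and no test between the families was made.

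To compare genes, normalized counts were divided by the length of the merged exons of each gene in GENCODE 44. Per kilobase, the alpha chains of laminin added up to 255.5, 246 and 232 in the untreated and 403, 379 and 377 in the treated libraries, a ratio of the means of 1.58. The beta chains went from 315 ± 10.1 to 479 ± 18.2 (SD, n = 3 each), a ratio of 1.52. The gamma chains, which were nearly all LAMC1, stood at 897 ± 29.4 and 862 ± 4.71, a ratio of 0.961 that became 1.05 with library totals. The gamma chains thus had more RNA per length than the alpha and beta chains in both conditions, but by a smaller margin after VPA. The ratio of gamma to alpha chain RNA within a library, which no scaling can change, was 3.38, 3.72 and 3.93 in untreated and 2.13, 2.26 and 2.30 in treated libraries, and that of gamma to beta was 2.66, 3.01 and 2.88 and then 1.73, 1.87 and 1.81. The beta to alpha ratio overlapped between the conditions, at 1.29 ± 0.0683 and 1.24 ± 0.0303. The length used does change these ratios. With the longest transcript, gamma to alpha was 2.79 ± 0.19 in untreated and 1.67 ± 0.0539 in treated libraries. Gamma to beta was then 1.93 ± 0.114 and 1.20 ± 0.0342, with the same direction.

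Among the integrins the beta subunits changed little, but unlike the laminin gamma chains they had less RNA per length than the alpha subunits in both conditions. The alpha subunits added up to 458 ± 3.86 per kilobase in untreated and 736 ± 7.91 in treated libraries (SD, n = 3 each), a ratio of 1.61, while the beta subunits stood at 249.8 ± 7.46 and 255 ± 6.26, a ratio of 1.02 (0.982 with the longest transcript as the length, 1.12 with library totals). Within a library the alpha to beta ratio moved from 1.89, 1.77 and 1.84 to 2.97, 2.84 and 2.85. Every treated library was above every untreated one, and so it was with the longest transcript as the length, at 1.37 ± 0.0594 and 2.19 ± 0.0810.

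Within the alpha chains of laminin LAMA1 took a larger share after VPA and LAMA3 a smaller one. LAMA5 led in untreated cells with 34.4% ± 3.22 of the alpha chain RNA per length, followed by LAMA3 with 30.8% ± 1.20 and LAMA1 with 21.0% ± 0.853. After VPA, LAMA5 had 36.2% ± 2.15, LAMA1 30.4% ± 0.395 and LAMA3 20.6% ± 0.893 (SD, n = 3 each), so that LAMA1 and LAMA3 changed places, while LAMA5 and LAMA3 overlapped in untreated libraries. With the longest transcript as the length LAMA1 (22.7% and 32.4%) and LAMA3 (29.7% and 19.6%) also changed places, but LAMA5 (30.5% and 31.6%) was level with LAMA3 without VPA and overlapped with LAMA1 after it, so that the lead of LAMA5 depends on the length used. LAMB2 made up 75.1% ± 0.463 and 73.4% ± 1.28 of the beta chains, and 55.1% in treated cells when the longest transcript was used. LAMC1 made up 96.6% ± 0.243 and 93.7% ± 0.738 of the gamma chains, and LAMC3 took 2.74% ± 0.201 and 5.44% ± 0.715.

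ITGA5 had the largest share of the integrin alpha subunits in both conditions, 23.6% ± 1.47 and 21.1% ± 1.32. ITGAE was second in untreated cells with 17.2% ± 0.654 and had 9.01% ± 0.478 after VPA, where ITGA6 stood second with 15.5% ± 1.18 (11.7% and 10.2% for ITGA6 and ITGAE with the longest transcript). ITGA4 went from 3.99% ± 0.327 to 8.53% ± 0.273 and ITGA9 from 2.03% ± 0.254 to 5.93% ± 0.258 (SD, n = 3 each). Among the beta subunits ITGB1 had 57.0% ± 0.873 and 50.6% ± 0.932, ITGB5 39.5% ± 0.473 and 41.7% ± 0.193, and ITGB3 1.35% ± 0.0292 and 4.61% ± 0.0657. With the longest transcript these became 70.3% and 65.0% for ITGB1, 27.6% and 30.3% for ITGB5 and 0.737% and 2.63% for ITGB3, with the same directions. These shares depend on the exons that are counted as part of a gene, and the annotation used in the counting is not given in the sources used here.

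**Figure D3:**
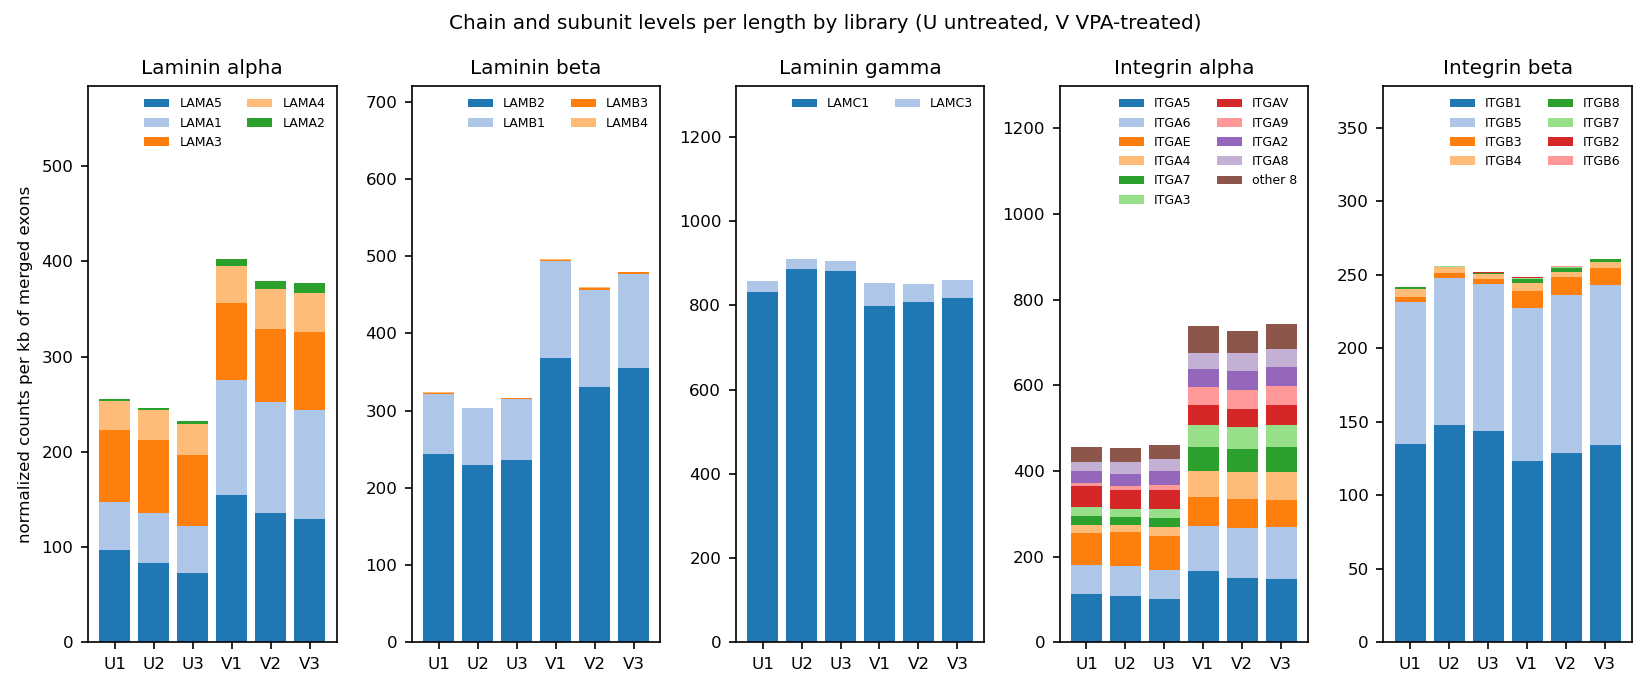
Normalized counts per kilobase of merged exons, stacked by gene, for the laminin alpha, beta and gamma chains and the integrin alpha and beta subunits in each of the 3 untreated (U1 to U3) and 3 VPA-treated (V1 to V3) libraries, with axes that start at 0 and differ between panels. The alpha and beta laminin bars and the integrin alpha bars are higher after VPA, while the laminin gamma bars (LAMC1 at 808 against 867 on average) and the integrin beta bars (255 against 249.8) stay near their level.

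Since increases were more frequent among genes with few counts in this series, the members were also read within ranges of the mean normalized count. Between 200 and 500 normalized counts 9 of 10 members rose and 4 were up-regulated, where 42.6% and 8.97% of all tested genes in that range were. Between 500 and 2000, 5 of 9 members rose, among them LAMA1 as the 1 up-regulated member, against 24.0% and 1.92%. From 2000 upwards 1 of 2 rose, LAMB2, and 0 were up-regulated, against 9.42% and 0.394%. Below 50 normalized counts 3 of 6 members rose and all of these were up-regulated (ITGA11, ITGB8 and LAMB3), against 40.9% and 29.4%, and between 50 and 200 it was 3 of 3 and 2 of 3 (LAMA2 and ITGB3), against 52.9% and 24.3%. This reading was chosen after the data were seen.

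**Figure D4:**
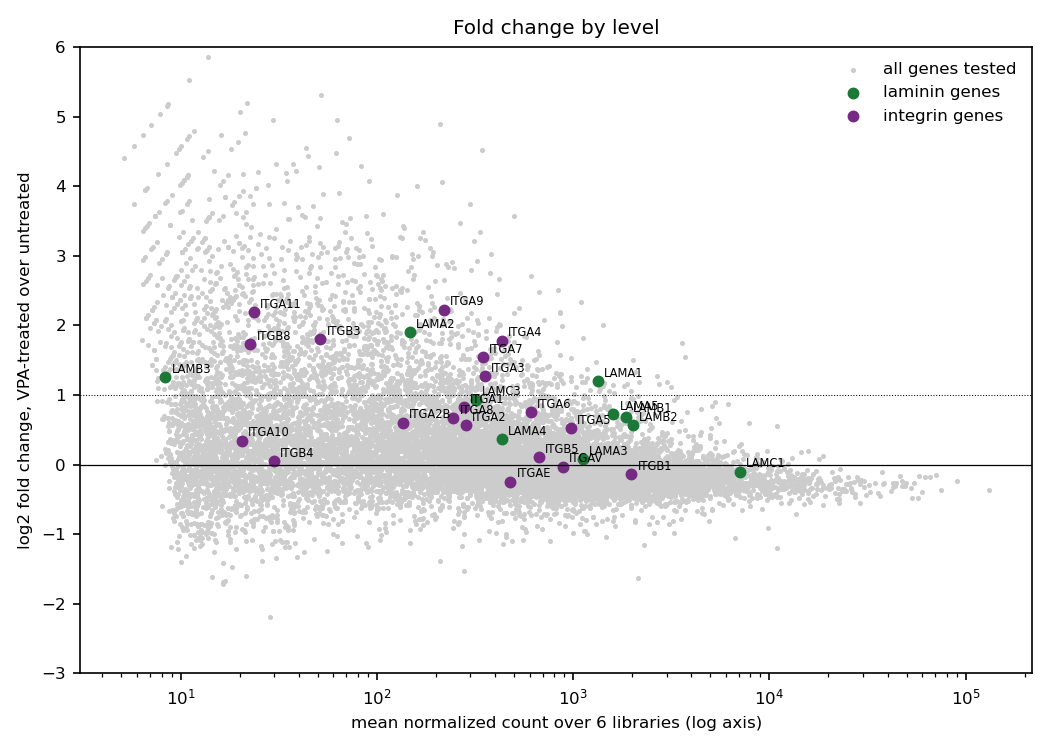
The log2 fold change (VPA-treated over untreated) against the mean normalized count over the 6 libraries on a log axis, for all 15298 tested genes (grey), the laminin genes (green) and the integrin genes (purple), with a dotted line at 1 and 5 genes outside the vertical range. LAMA1 (1.20), ITGA4 (1.78) and ITGA9 (2.23) lie high among genes of their level, while LAMC1, ITGB1, ITGAE, ITGAV, LAMA3 and ITGB5 lie near 0.

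Genes that work with laminins and integrins were followed as 5 lists. Of all tested genes 32.9% were higher and 12% up-regulated. The up-regulated share was larger at low counts, at 29.4% below 50 normalized counts and 24.3% between 50 and 200, and the lists were not read by level. Basement membrane partners gave 20 higher and 1 lower of 21 tested, and 9 up-regulated, and their median was 0.80 on the log2 scale. Among them were NPNT (1.84), the ligand of ITGA8, EGFLAM (1.79), which binds dystroglycan, FBLN2 (1.78) and the collagen chain COL4A4 (1.73). The laminin linker NID1, the most counted of this list, stood at 6236 ± 83.4 and 9451 ± 112 (SD, n = 3 each), a rise of 0.60 on the log2 scale, and COL4A2 rose by 0.24. SMOC1, named after its value was seen as the 1 lower gene, fell by 0.45 on the log2 scale. SMOC2 and TINAGL1 had too few counts, and COL4A5 and COL4A6, on chromosome X, are listed at 0.

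Other integrin ligands gave 13 higher and 1 lower of 16 tested, and 8 up-regulated, with a median of 0.94. The shares over all tested genes were again 32.9% higher and 12% up-regulated. SPP1, which encodes osteopontin, a ligand of ITGA4, ITGA9 and ITGAV integrins, went from 5.21 ± 2.05 to 119 ± 12.7 (SD, n = 3 each), which is 4.47 on the log2 scale (SE 0.24). COL3A1 (2.39), EDIL3 (1.73) and COL1A1 (1.57) were also up-regulated. FN1, which encodes fibronectin, the ligand of ITGA5, was the most counted, at 1998 ± 87.8 and 4307 ± 80.1 (log2 fold change 1.11), followed by MFGE8 (0.51). EMILIN1, likewise named after its value was seen, fell by 0.81 on the log2 scale. The other 11 genes of this list, among them VCAM1, ICAM1 and VTN, had too few counts to be tested.

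Genes that act inside the cell or as other receptors had medians and up-regulated shares nearer to those of all tested genes. The shares of higher genes were 43.2% for the adaptors and 47.8% for the other laminin receptors, against 32.9% of all tested genes. The adaptors and focal adhesion proteins gave 16 higher and 7 lower of 37 tested, with a median of 0.09, and 4 (10.8%) were up-regulated, close to the 12% of all tested genes. TNS1 (log2 fold change 1.48), FLNC (1.15), TGFB1I1 (1.02) and FERMT1 (0.87) rose most among those averaging 50 or more normalized counts, and ACTN4, the most counted, had -0.26. APBB1IP, PARVG and TNS4 were not tested for few counts. FLNA, on chromosome X, is listed at 0 in all libraries, as are the other chromosome X genes of these lists (COL4A5, COL4A6 and DMD). These values do not show that the genes were silent. Other laminin receptors and the enzymes that glycosylate dystroglycan gave 11 higher and 7 lower of 23, with a median of 0.04, and the 2 up-regulated (8.7%) were also close to that share. LARGE2 (1.84), an enzyme that builds the laminin-binding glycan, and the syndecan SDC1 (1.44) were up-regulated, SGCE had 0.84 and SDC3 0.67, while dystroglycan itself, DAG1, had -0.09 (adjusted p = 0.0706). RPSA fell by 0.26, but its processed copies in the genome make its count uncertain. DMD, on chromosome X, is listed at 0, and SGCA and SGCD were among those not tested. Integrin-associated tetraspanins and CD proteins gave 7 higher and 2 lower of 12, and 3 up-regulated (CAV1 1.31, CD9 1.11 and TSPAN4 1.00), with a median of 0.31. Their 58.3% higher and 25% up-regulated were above the 32.9% and 12% of all tested genes. CD82 had 0.93, BSG 0.0015 and CD81 -0.22.

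**Figure D5:**
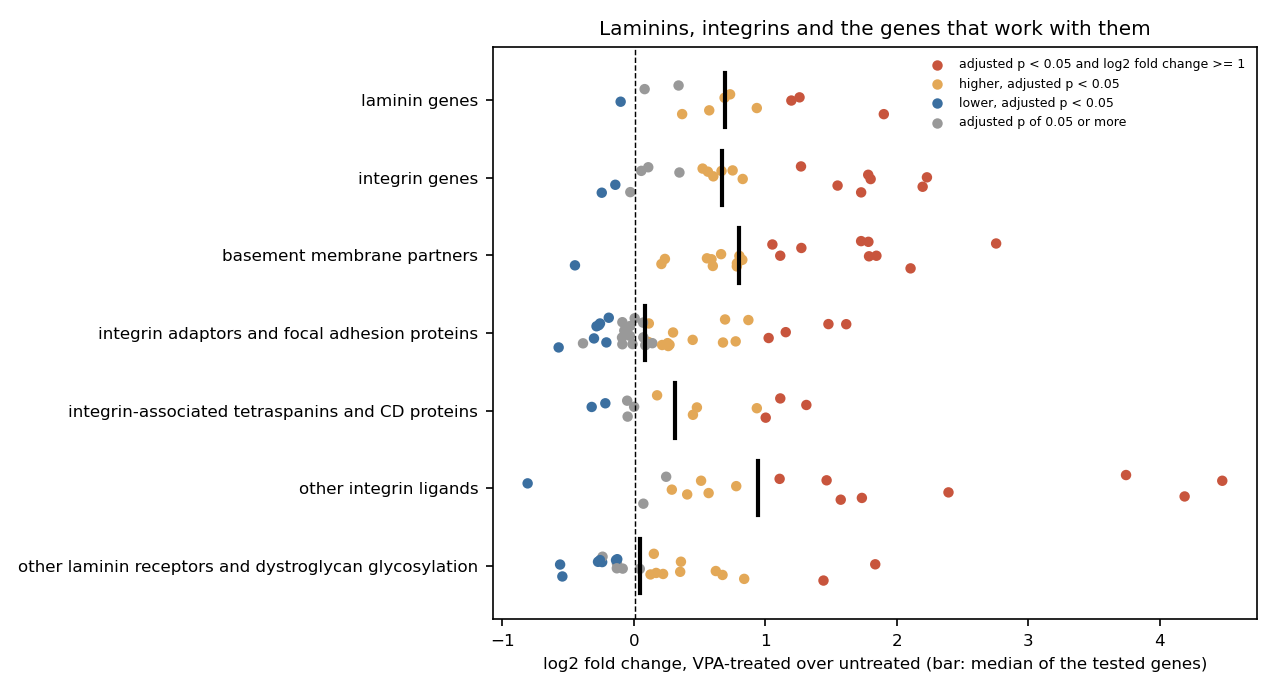
The log2 fold changes (VPA-treated over untreated) of the tested laminin genes, integrin genes and 5 lists of partner genes, coloured by whether each passed the thresholds, with a black bar at each list's median and a dashed line at the median of all tested genes. The medians are 0.69 and 0.67 for laminins and integrins, 0.80 for basement membrane partners, 0.94 for other ligands and 0.09 for focal adhesion proteins.

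Position and promoter letters were compared over the members. LAMB1 and LAMB4 lie 20334 bases apart on chromosome 7, the first abundant and the second poorly counted. LAMA5 shares 244 exon bases with ADRM1 and LAMB1 shares 300 with DLD, both on the opposite strand. ITGA1 shares 499 exon bases with PELO on its own strand, where reads that fit both genes were set aside, and ITGB3 shares 2266 with a transcript that continues past it. ITGAM, ITGAX and ITGAD are neighbours on chromosome 16, with 22241 and 10335 bases between them, and all 3 were near 0. Promoters were held for 26 of the 38 members. GGGCGG on either strand was present in 13 of the 22 promoters of tested members (59.1%), in 9 of 15 among those that rose and in 4 of 7 among the others, against 69.7% of the promoters of all tested genes and 44.6% of all 27305 promoters. CCAAT was in 3 of the 22 (13.6%), against 36.1% of those of tested genes, TATAAA in 1, TGANTCA (the AP-1 motif) in 2, those of ITGA5 and LAMA3, and CACGTG in 1. The windows here run from 250 bases before to 50 after the start, and the median GC content was 69.3% for members that rose and 61.7% for the other tested members. Those without one include ITGA3, ITGA7, ITGA9, ITGB3, ITGB4, LAMA1 and LAMC3.

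Marker genes were read beside these results. Of 8 genes known from HEK293 lines 6 were tested, PAX8 had 2 counts in all and KRT19 is listed at 0. VIM and CDH2, at high counts, fell by 0.27 and 0.37 on the log2 scale, while KRT8 (1.37), KRT18 (0.22) and, at low counts, PAX2 (2.26) and EPCAM (1.11) rose, and the sum of the list moved from 14060 to 14520 normalized counts in untreated to 12630 to 13220 in treated libraries. Of 5 fibroblast markers DCN, LUM and PDGFRA were up-regulated while PDGFRB did not pass and THY1 had at most 1 count a library, and the sum of the 5 moved from 66.1 to 78.7 normalized counts in untreated to 363 to 372 in treated libraries. Of 5 endothelial markers KDR and VWF were up-regulated, while PECAM1, CDH5 and TEK had 0 to 3 counts a library, with sums of 10.4 to 20.9 and 138 to 171. The leukocyte markers summed to 1708 to 1946 and 2738 to 2925, nearly all of it LCP1, while PTPRC was at 0, 0 and 0 and then at 5, 4 and 3. The platelet markers summed to at most 8.62, with PPBP, GP9 and TUBB1 listed at 0. Of the fibroblast and endothelial markers DCN, LUM, PDGFRA, KDR and VWF thus rose, and the others did not pass or were barely counted. Of the 21 members that rose 10 were up-regulated, namely LAMA1, LAMA2, LAMB3, ITGA3, ITGA4, ITGA7, ITGA9, ITGA11, ITGB3 and ITGB8. LAMA4, a chain of vessel and mesenchymal matrices, rose 1.29-fold, below the fold change threshold. The part of these markers in the results was not tested.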

How the data were processed

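RNA-seq of 3 untreated and 3 VPA-treated HEK293T libraries was used. The authors cleaned the reads, aligned them to hg38 with STAR (2.7.10b in the submitters' processing notes) and counted them per gene with HTSeq (2.0.1 there), and the deposited values are raw counts per gene symbol, not normalized. Reads with several places or several genes were set aside in that counting, and the 5 summary lines were left out, with reads off any gene at 6.80% to 7.69% of those listed, ambiguous reads at 1.97% to 2.10% and reads without a unique place at 2.81% to 2.92%. Neither annotation nor strand setting is given in the sources used here.

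All genes kept by filterByExpr (minimum count 10) were fitted in edgeR 4.0.16 (R 4.3.3) after TMM scaling by a robust quasi-likelihood model of condition, the prior count being 0.125 and the Benjamini-Hochberg threshold 0.05. Standard errors are the log2 fold change over the root of F. Libraries of a condition differed by more than sampling noise (chi-square per gene of 1.62 to 4.63). Each was treated as 1 replicate, though this spread does not show that the cultures were separate. The alternatives included DESeq2 1.42.0. The test was checked on simulated counts. Lengths, strands and coordinates are from GENCODE 44, promoters from RefSeq. All members could be named, and of each list the 4 largest significant changes among genes averaging 50 or more normalized counts, the 2 most counted genes and those that could not be tested. The members and lists were chosen with earlier results of these data known. Single values of some genes are not reported here, and these are not drawn by name, while counts and medians include them.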

Additional observations from a re-analysis of the deposited data

How the results depend on the processing

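Over 477 comparisons of single members with their values under alternatives, 434 kept the call or the lack of one, 34 lost the call and 8 gained it. In 1 a called member changed sign, LAMC1 with library totals (0.031). Of the 34 lost calls 16 came with glmTreat, which asks for a log2 fold change beyond 1. Members with smaller changes could not keep their call there. The totals also hold settings that changed no call of a member, such as a prior count of 2, so that they depend on the settings chosen. A change of sign was counted only where a fit called the member. Uncalled members did change sign, as ITGAV (-0.03, and 0.10 with library totals) and ITGB4 (0.06, and -0.20 to 0.24 when single libraries were left out). The laminin genes that fell went from 1 to 0 with the upper quartile, library totals, at least 10 counts in every library and a threshold of 0.01, and the integrin genes that fell from 2 to 1 with the upper quartile and with 0.01 and to 0 with library totals. Library totals raised the medians to 0.82 for laminins and 0.80 for integrins, with that of all genes at 0.14. Of the other integrin ligands 0 fell with DESeq2, library totals or 0.01, and 5 were up-regulated with at least 10 counts in every library. Of the other laminin receptors and glycosylation enzymes 4 fell with the upper quartile, 3 with library totals and 4 with 0.01. Of the tetraspanins and CD proteins 1 fell with library totals and 1 was up-regulated with glmTreat. Leaving out each library gave 7 to 9 laminins that rose, 0 to 1 that fell and 2 to 3 up-regulated, 13 integrins that rose, 1 to 2 that fell and 7 up-regulated, and 0 to 1 other ligands that fell or were down-regulated. Causes of these changes were not tested.

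Replicate numbers are shared between the conditions. The departures of same-numbered libraries from the mean of their condition correlated at 0.139, 0.0214 and 0.0805, against -0.107 to 0.0308 for unlike numbers. Such departures cancel within a condition, so these values are not independent of each other and do not decide on pairing. The labels do not say whether same-numbered libraries belong together, and the main fit did not treat them as pairs. With the replicate block ITGB5 passed (adjusted p = 0.0468), so that 14 integrins rose instead of 13. The block changed no other call of a member. It lowered adjusted p-values in edgeR, that of LAMA5 from 0.000222 to 1.98e-22 and that of LAMC1 from 0.0323 to 0.0016. Depth limited the members with few counts, 8 of which were not tested. The ranges of mean count were added after the data were seen.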
